A study of Arabidopsis thaliana with 42 samples.

Results

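The mitochondrion-encoded genes of Arabidopsis thaliana were followed through 23 probe sets for 16 genes, chosen because their annotation names a single gene that lies on the mitochondrial chromosome. The arrays carry 22810 probe sets, of which 22746 are not controls and were tested. RNA came from whole seedlings, whose seeds were kept cold for 2 days at 4 °C on sucrose medium and then grown for 10 days at 25 °C with 16 h of light a day in every group, and the series is about the interplay of the isoforms of ACC synthase (ACS), which makes the direct precursor of the hormone ethylene. A single set comprised 8 lines titled as single mutants, namely acs1A, the pair acs2B and acs2C, acs4A, the pair acs5C and acs5D, acs6E and acs9B, next to wild-type Col, and the higher order set held penta, hexa, hepta and miR mutants and Col seedlings of its own, with 3 arrays per group. The sources used here do not give the alleles, the genes combined in the higher order lines, the target of miR or whether a line is 1 transformant.

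Plant mitochondria keep a small genome that encodes a few subunits of the respiratory complexes, proteins that attach heme to cytochrome c, ribosomal proteins, a maturase and a transport protein, while the nucleus encodes the remaining respiratory subunits. Their transcripts are made by phage-type RNA polymerases, many are edited, and several are joined from separate precursors by trans-splicing. Unlike nuclear messengers they mostly carry no stable poly(A) tail, and a tail added to them marks them for decay. Labelling for these arrays usually primes on poly(A), and the primer used is not given in the sources used here. How far a signal here follows the total amount of a mitochondrial transcript is therefore not known, and in RNA of whole seedlings fewer mitochondria or cells and less RNA in each cannot be told apart.

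The members fell into 4 roles. NADH dehydrogenase (complex I), the entry point of electrons from NADH, had 15 probe sets for 8 genes: nad1 with 7, nad5 with 2, and nad2, nad4, nad4L, nad6, nad7 and nad9 with 1 each. Cytochrome c oxidase (complex IV), which passes electrons to oxygen, had cox1 and cox2, its core subunits. Cytochrome c maturation had ccmB, ccmFC, ccmFN1 and ccmFN2, listed in the annotation as ccb206, ccb452, ccb382 and ccb203. The last pair were matR, a maturase for splicing whose reading frame lies within an intron of nad1, and mttB, listed as orfX, a TatC-like transport protein. Of 33 protein-coding mitochondrial genes in the gene table, the others, such as those of the ribosome and of ATP synthase, had no member. The annotation names no gene for 8730 of the 22810 probe sets and several genes for 503, so a gene without a member may still have a probe set. The names of 5 probe sets (nad5 257338_s_at, nad6, ccmFC, matR and mttB) carry the suffix for probes shared with other sequences. A near-identical copy of the mitochondrial genome lies on chromosome 2, so a signal cannot be assigned to the organelle copy alone. The files do not say which stretch of nad1 each of its 7 probe sets reads. Levels are log2 values, and differences are log2 differences with their SE, line minus Col of the same set. Of the 23 members, 17 lay below the median level of all probe sets in each set (6.80 and 6.27), a range in which background forms a larger share of the signal.

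Control values moved with the groups of the single set. The labelling control thr read 7.41 to 8.43 on the 24 line arrays and 6.81 to 6.97 on the 3 Col arrays, the actin 3′ minus 5′ difference, a measure of RNA or cDNA length, 0.76 to 1.00 and 1.20 to 1.42, and a 25S ribosomal RNA probe set 7.03 to 8.61 and 9.11 to 9.38. Of 45 probe sets for added control transcripts, some of which read the same transcript, 26 to 36 were called against Col. Labelling or RNA quality and genotype therefore cannot be told apart where a single line is set against Col. The hybridization control bioC split the line arrays at 7.37 to 7.83 and 9.22 to 9.54. In the higher order set limma called 0 added controls in hexa or hepta (0 also at an unadjusted p under 0.05), 0 in penta (1 unadjusted) and 5 in miR, and the 25S probe set read 5.97 to 6.97 on the line arrays and 6.89 to 7.21 on Col. All arrays of hexa, hepta and miR (5.97 to 6.57) lay below Col in that probe set, while those of penta (6.79 to 6.97) overlapped it. Members varied more between the single-set Col arrays (median SD 0.174) than within any single line (0.0845 to 0.123). So did all probe sets (median SD 0.12 in Col and 0.0722 to 0.101 in the lines). For whole seedlings, the leaf gene RCA read a mean of 14.22 in the single set, the root gene PYK10 13.49 and the pollen gene LAT52 4.58.

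In the single lines most mitochondrial calls against Col were lower, and cox1 and matR were the members called higher in 4 or more of the lines. Of 184 pairs of a member and a line, 75 were called lower and 20 higher by limma at an adjusted p below 0.05, and no member was called in both directions. nad1 (257322_at), nad2, nad9 and ccmFN1 were lower in all 8 lines, as were 2.23% of all probe sets. nad1 (257325_at), nad4, nad5 (257338_s_at) and ccmB were lower in 7 lines, nad1 (257327_at) in 6 and nad7 in 5. nad1 (257329_at), nad4L, nad6 and ccmFN2 were called in none. All 24 line arrays read below all 3 Col arrays for nad1 (257322_at), nad1 (257325_at) and ccmFN1, against 3.25% of all probe sets in that position. The 8 comparisons share their Col arrays and are not independent.

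In acs1A 12 of 23 members were called, 2 higher and 10 lower, beside 21.4% of all, 8.83% higher and 12.5% lower. In acs2B 11 of 23 members were called, 5 higher and 6 lower (22.7% of all, 10.2% higher and 12.5% lower). In acs2C 13 of 23 members were called, 2 higher and 11 lower (26.6% of all, 12.1% higher and 14.5% lower). The member share exceeded the share of all probe sets in each of these lines. In acs4A 12 of 23 members were called, 1 higher and 11 lower (20.3% of all, 9.57% higher and 10.7% lower). In acs5C 10 of 23 members were called, 2 higher and 8 lower (19.2% of all, 8.66% higher and 10.5% lower). In acs5D 12 of 23 members were called, 2 higher and 10 lower (17.6% of all, 7.35% higher and 10.3% lower). The lines acs4A, acs5C and acs5D thus had 8 to 11 lower members each. In acs6E 14 of 23 members were called, 4 higher and 10 lower (28.8% of all, 13.4% higher and 15.5% lower). In acs9B 11 of 23 members were called, 2 higher and 9 lower (25.6% of all, 10.9% higher and 14.7% lower). Median differences of the members ran from -0.26 in acs4A to -0.06 in acs9B, and those of all probe sets from -0.03 to 0. The member count was 7 in acs1A and 6 in acs5C without Col replicate 1 (beside 21.2% and 18.2% of all probe sets), and 6 in acs2B without acs2B replicate 1 (16.5%). With only the 6 arrays of the groups compared it was 7 in acs1A (beside 10.2% of all probe sets), 3 in acs2B (11.2%), 5 in acs4A (2.51%), 4 in acs5C (8.03%) and 7 in acs5D (8.07%).

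**Figure D1:**
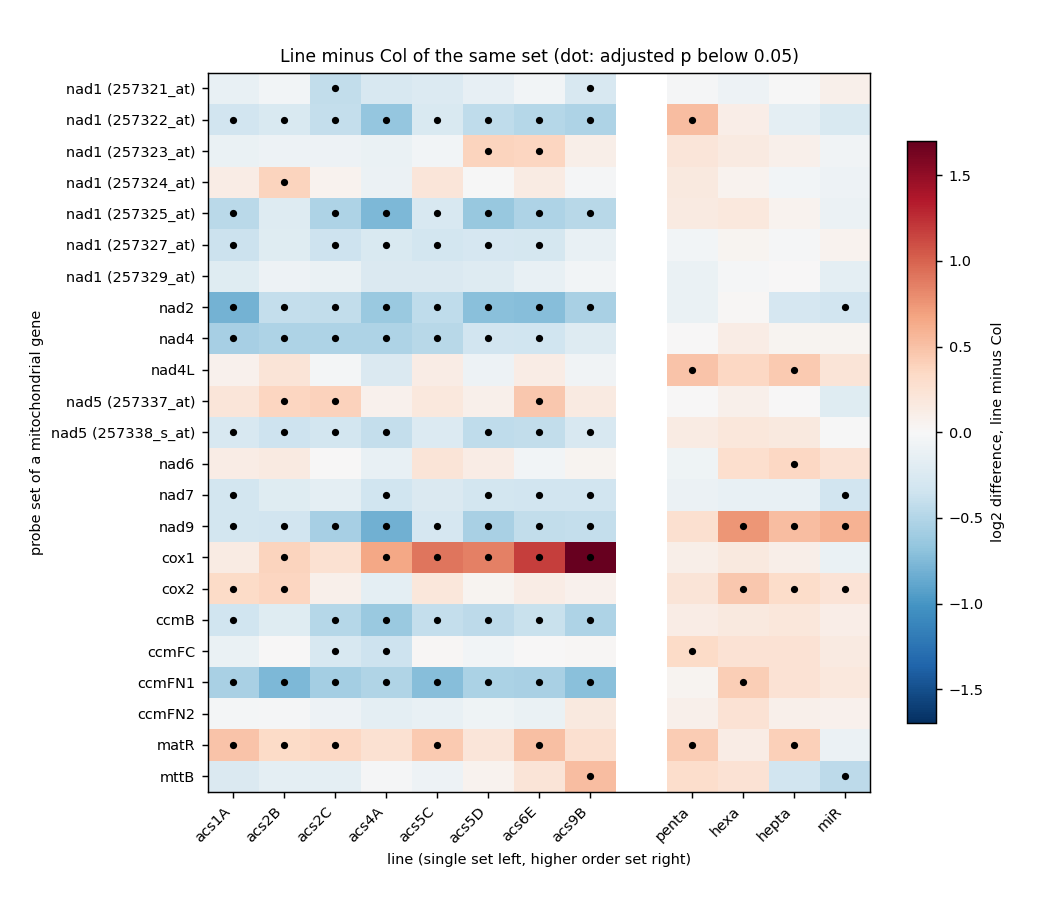
Log2 difference of each line from the Col arrays of its own set (columns, 3 arrays per group) for the 23 probe sets of mitochondrial genes (rows), with red for higher and blue for lower. A dot marks an adjusted p below 0.05: the lower calls fill the rows of nad1 (257322_at), nad2, nad9 and ccmFN1 across the single lines, and the reddest cell is cox1 in acs9B at 1.69.

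Among the complex I genes, nad2, which encodes a membrane subunit that takes part in proton pumping, was lower in every single line, by -0.41 in acs2B to -0.80 in acs1A. nad2 read 4.25, 4.33 and 4.27 in acs1A, 4.82, 4.54 and 4.66 in acs2B, 4.80, 4.67 and 4.51 in acs2C and 4.46, 4.32 and 4.58 in acs4A. It read 4.61, 4.55 and 4.80 in acs5C, 4.45, 4.25 and 4.43 in acs5D, 4.22, 4.53 and 4.35 in acs6E and 4.40, 4.70 and 4.48 in acs9B, against 5.40, 5.04 and 4.80 in Col. The first acs2B and acs2C arrays and the third acs5C array read about as high as the lowest Col array, and the remaining line arrays lay below it. The difference was -0.80 ± 0.12 (limma adjusted p = 4.5e-05) in acs1A and -0.72 ± 0.12 (limma adjusted p = 9e-05) in acs6E. The calls in acs2B, acs2C and acs5C (adjusted p = 0.016, 0.011 and 0.014) were lost without Col replicate 1, and also without acs2B replicate 2, acs2C replicate 3 and acs5C replicate 2.

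nad9 encodes a subunit of the matrix arm of complex I. nad9 read 6.07, 6.14 and 6.25 in acs1A, 6.09, 6.15 and 6.15 in acs2B, 6.10, 5.78 and 5.81 in acs2C and 5.78, 5.56 and 5.58 in acs4A. It read 6.38, 6.06 and 6.09 in acs5C, 5.96, 5.90 and 5.86 in acs5D, 5.98, 6.07 and 6.05 in acs6E and 5.92, 6.05 and 6.21 in acs9B, against 6.65, 6.40 and 6.32 in Col. The arrays of acs4A read lowest on average and those of acs5C and acs1A highest among the lines. The fall in acs4A was -0.82 ± 0.10 (limma adjusted p = 2.8e-06), and that in acs5C -0.28 ± 0.10 (limma adjusted p = 0.047). acs5C replicate 1 lay inside the Col range. Calls in acs1A, acs2B and acs5C were lost without Col replicate 1 and without acs1A replicate 1 or 2, acs2B replicate 1, or Col replicate 2 or acs5C replicate 2 or 3.

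nad4, a membrane subunit, was lower in 7 lines. nad4 read 8.87, 8.98 and 9.04 in acs1A, 9.13, 8.93 and 8.96 in acs2B, 8.98, 9.02 and 9.02 in acs2C and 9.05, 8.97 and 9.03 in acs4A. It read 8.95, 9.04 and 9.20 in acs5C, 9.18, 9.27 and 9.18 in acs5D, 9.16, 9.31 and 9.09 in acs6E and 9.25, 9.37 and 9.32 in acs9B, against 9.69, 9.60 and 9.30 in Col. The acs9B arrays overlapped Col replicate 3, and the difference there of -0.22 ± 0.08 was not called (limma adjusted p = 0.062). In acs1A the difference was -0.57 ± 0.08 (limma adjusted p = 4.1e-05), and the acs5D call (-0.32 ± 0.08) was lost without Col replicate 1. nad4L, which encodes a small membrane subunit, read 5.84 to 6.62 on the line arrays, against 6.19, 6.03 and 6.23 in Col. Its arrays overlapped Col in every line but acs4A, whose arrays lay just below the lowest Col array, and it was called in none of the 8 lines, with differences of -0.24 in acs4A to 0.22 in acs2B. nad6, another membrane subunit, ranged from -0.12 to 0.22 and was likewise called in none. nad7, a subunit of the arm that holds the redox centres, was lower by -0.34 to -0.31 in acs1A, acs4A, acs5D, acs6E and acs9B, calls that were lost without Col replicate 1 or 1 of the line's own arrays in acs1A, acs4A, acs5D and acs9B and without acs6E replicate 2 in acs6E.

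The 7 probe sets of nad1 did not move together. nad1 encodes a membrane subunit at the junction of the arms of complex I, and its messenger is joined from separate transcripts by trans-splicing. The probe set 257325_at read 6.16, 6.10 and 6.17 in acs1A, 6.39, 6.38 and 6.39 in acs2B, 6.10, 5.93 and 6.18 in acs2C and 5.90, 5.89 and 5.75 in acs4A. It read 6.40, 6.40 and 6.20 in acs5C, 6.10, 5.74 and 6.03 in acs5D, 6.00, 6.08 and 6.19 in acs6E and 6.16, 6.04 and 6.21 in acs9B, against 6.49, 6.62 and 6.70 in Col. All line arrays lay below Col, least in acs2B at -0.22 ± 0.09, which was not called (limma adjusted p = 0.07), and most in acs4A at -0.76 ± 0.09 (limma adjusted p = 1.6e-06). Its acs5C call (-0.27 ± 0.09) was lost without Col replicate 2 or 3 or acs5C replicate 3. The probe set 257322_at differed by -0.26 in acs2B and acs5C to -0.66 in acs4A, and the calls in those first lines were lost without Col replicate 2, acs2B replicate 1 or acs5C replicate 2. In acs5D and acs6E the probe set 257323_at was higher by 0.38 and 0.36 while 257322_at and 257325_at were lower. Those higher calls were lost without Col replicate 3 and without 1 or more of the line's own arrays. In acs2B, 257324_at was higher (0.38 ± 0.09 (limma adjusted p = 0.0049)), but with the 6 arrays alone it was not called (adjusted p = 0.098). The probe set 257321_at was lower in acs2C and acs9B (-0.42 and -0.27), the second of which was lost without Col replicate 1 or 2 or acs9B replicate 1 or 2. The calls of 257327_at held without any 1 array in acs1A and acs2C (-0.36 and -0.35) and were lost without Col replicate 1 in acs4A, acs5C, acs5D and acs6E. The pair of nad5 probe sets also parted. nad5, a membrane subunit of the proton pump, was lower through 257338_s_at in 7 lines (-0.43 to -0.27 where called) and higher through 257337_at in acs2B, acs2C and acs6E (0.36, 0.39 and 0.46). The calls of 257338_s_at were lost without Col replicate 1 or 2 in acs1A, acs2C and acs9B and without acs2B replicate 1 in acs2B. The acs2B and acs2C calls of 257337_at were lost without Col replicate 1, while in acs6E the call held in every fit that left out 1 array.

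**Figure D2:**
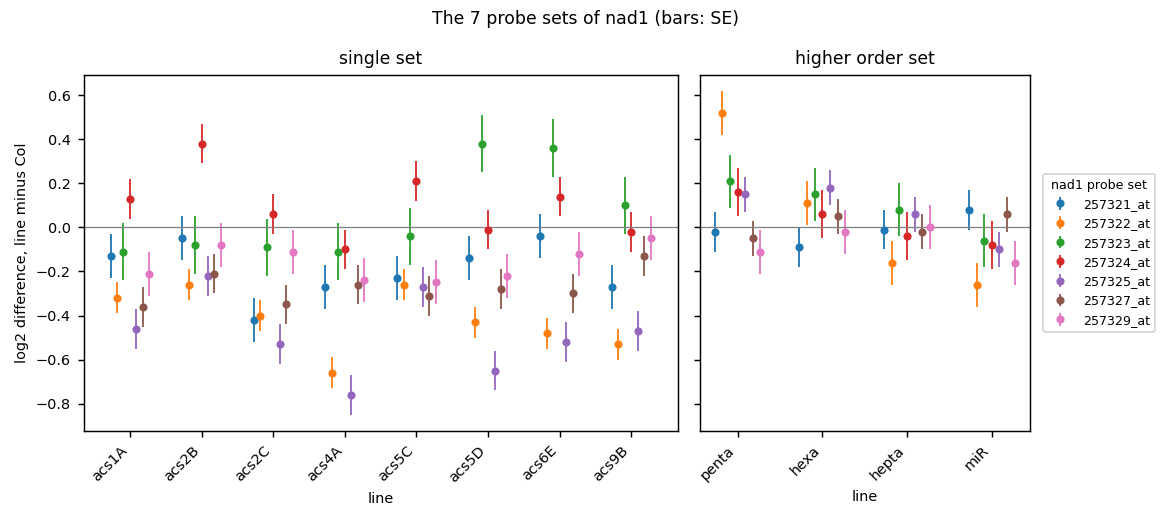
Log2 difference from Col with its SE for the 7 probe sets of nad1 (colours) in the 8 single lines and the 4 higher order lines (horizontal axis). In acs6E the probe sets spread from -0.52 to 0.36, and in penta 257322_at lies alone at 0.52.

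The genes of cytochrome c maturation split into a pair that was mostly lower and a pair that was mostly not called. ccmFN1 encodes a part of the heme lyase that joins heme to cytochrome c. ccmFN1 read 9.42, 9.50 and 9.46 in acs1A, 9.27, 9.27 and 9.24 in acs2B, 9.23, 9.53 and 9.57 in acs2C and 9.43, 9.47 and 9.62 in acs4A. It read 9.23, 9.27 and 9.41 in acs5C, 9.34, 9.53 and 9.56 in acs5D, 9.68, 9.40 and 9.32 in acs6E and 9.12, 9.48 and 9.34 in acs9B, against 10.23, 10.05 and 9.77 in Col. No line array reached the lowest Col array, and the first acs6E array came nearest to it. Differences ran from -0.51 ± 0.11 (limma adjusted p = 0.0019) in acs4A to -0.76 ± 0.11 (limma adjusted p = 3.7e-05) in acs2B, and the call held in all 8 lines in every fit that left out 1 array. With only the arrays of acs4A and Col it was not called (adjusted p = 0.073). The lines did not differ among themselves beyond their spread (limma F-test adjusted p = 0.33). ccmB, a subunit of the heme transporter, was lower in 7 lines by -0.34 in acs1A to -0.63 in acs4A, and in acs2B it differed by -0.20 ± 0.10. The ccmB calls in acs1A, acs5C and acs6E were lost without Col replicate 1, and in acs1A also without acs1A replicate 2. ccmFC, another heme lyase subunit, was lower in acs2C (-0.27 ± 0.08) and acs4A (-0.35 ± 0.08) and differed by -0.11 to 0.02 elsewhere. The acs2C call was lost without Col replicate 1 or acs2C replicate 1. ccmFN2, which carries the other part of the split ccmFN protein, was called in no line.

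cox1 stood apart from the other members in the single lines. It encodes the catalytic subunit of cytochrome c oxidase. cox1 read 7.65, 7.63 and 7.92 in acs1A, 8.02, 7.91 and 7.99 in acs2B, 7.85, 7.84 and 7.86 in acs2C and 8.18, 8.21 and 8.36 in acs4A. It read 8.26, 8.52 and 8.73 in acs5C, 8.64, 8.17 and 8.54 in acs5D, 8.68, 8.85 and 8.75 in acs6E and 9.16, 9.39 and 9.30 in acs9B, against 7.68, 7.69 and 7.39 in Col. In every line but acs1A all arrays lay above the highest Col array, and acs9B lay above every other array. The differences were 0.38 ± 0.11 (limma adjusted p = 0.018) in acs2B, 0.66 ± 0.11 (limma adjusted p = 0.00023) in acs4A and 0.91 ± 0.11 (limma adjusted p = 6e-06) in acs5C. They were 0.86 ± 0.11 (limma adjusted p = 1.2e-05) in acs5D and 1.17 ± 0.11 (limma adjusted p = 9.1e-08) in acs6E, 2.25-fold. In acs1A and acs2C cox1 was not called (0.14 ± 0.11 (limma adjusted p = 0.42) and 0.26 ± 0.11 (limma adjusted p = 0.095)). The acs2B call was lost without Col replicate 3 or acs2B replicate 1 or 3, and the other 5 held in every fit tried that gave a value against Col. In rising order the mean levels were Col, acs1A, acs2C, acs2B, acs4A, acs5D, acs5C, acs6E and acs9B. Neighbours overlapped in that order between Col, acs1A and acs2C and between acs4A, acs5D, acs5C and acs6E. Arrays of acs2C lay below those of acs2B, those of acs2B below acs4A and those of acs6E below acs9B. cox2, the subunit that receives electrons from cytochrome c, was higher in acs1A and acs2B only (0.32 ± 0.09 and 0.36 ± 0.09). The acs1A call of cox2 was lost without Col replicate 1 or acs1A replicate 2, and the acs2B call with those 6 arrays alone (adjusted p = 0.063).

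matR, the maturase, was the other member higher in over 4 lines. matR read 5.82, 5.69 and 5.48 in acs1A, 5.47, 5.49 and 5.53 in acs2B, 5.64, 5.45 and 5.49 in acs2C and 5.23, 5.65 and 5.43 in acs4A. It read 5.73, 5.58 and 5.56 in acs5C, 5.18, 5.45 and 5.49 in acs5D, 5.69, 5.63 and 5.71 in acs6E and 5.38, 5.44 and 5.49 in acs9B, against 5.31, 5.20 and 5.00 in Col. All arrays of acs1A, acs2B, acs2C, acs5C, acs6E and acs9B lay above Col. The differences of 0.49 ± 0.10 in acs1A, 0.45 ± 0.10 in acs5C and 0.51 ± 0.10 in acs6E (limma adjusted p = 0.0011, 0.0024 and 0.0005) held in every fit that left out 1 array. Those in acs2B and acs2C (0.33 ± 0.10 and 0.35 ± 0.10) were lost without Col replicate 3, acs2B replicate 3 or acs2C replicate 1. mttB was higher in acs9B alone among the single lines, with 7.76, 8.07 and 8.00 in acs9B, against 7.47, 7.21 and 7.56 in Col. Its acs9B arrays all lay above Col, and the difference of 0.53 ± 0.11 (limma adjusted p = 0.0011) held in every fit tried.

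**Figure D3:**
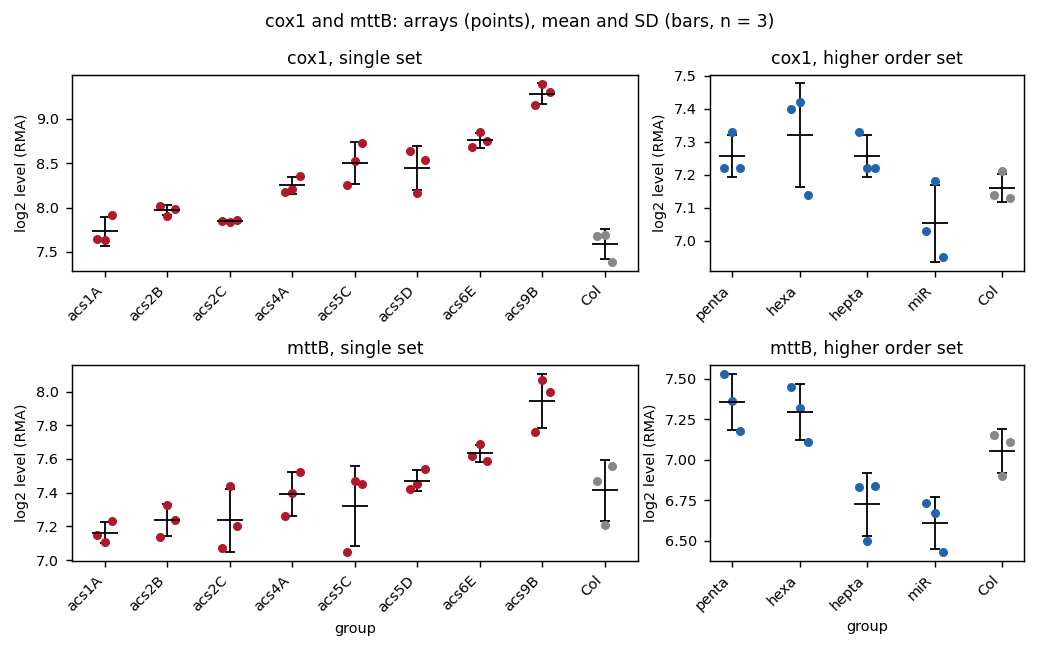
Log2 levels of cox1 (top) and mttB (bottom) on each array (points) of the single set (left) and the higher order set (right), with the mean and SD of 3 arrays (bars). cox1 spans 7.63 to 9.39 on the single-line arrays, against 7.39 to 7.69 on Col, and 6.95 to 7.42 on the higher order line arrays, against 7.13 to 7.21 on Col.

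Comparing each single line with the mean of the other 7 asks which members were particular to a line. Col has no part in these differences, but its arrays enter the shared estimate of the spread behind each SE and p-value. The lines differed among themselves for 15 of 23 members (limma F-test, beside 37.5% of all probe sets), with the lowest adjusted p for cox1 (1.2e-08) and mttB (7.2e-05). In acs9B 4 of 23 members were called, 4 higher and 0 lower (22% of all, 10.2% higher and 11.8% lower). cox1 was higher there by 1.07 ± 0.09 (limma adjusted p = 6.1e-08) and mttB by 0.59 ± 0.08 (limma adjusted p = 4.2e-05). Both stayed higher when acs9B was set against only the arrays of its own bioC level, by 0.91 and 0.46. At that level acs2B entered by its replicate 2 alone, with the same weight as each line of 3 arrays. Its cox1 level of 7.91 lay below every acs5D and acs6E array, which widens the cox1 difference. The other acs9B calls, nad4 and ccmFN2, were lost without acs9B replicate 2 and without acs9B replicate 1 or 3. In acs6E 4 of 23 members were called, 4 higher and 0 lower (22% of all, 11.9% higher and 10.1% lower), with cox1 at 0.47 ± 0.09 and nad1 (257323_at) at 0.36 ± 0.10 the largest. At the same bioC level none of the acs6E calls passed (cox1 adjusted p = 0.16). The acs6E count was 2 without acs6E replicate 1 and 1 without acs6E replicate 2. The member share in acs9B and in acs6E (17.4% each) was below that of all probe sets. Directly compared, acs6E and acs9B differed at 3 of 23 members (13%), below the share of all (29.9%, 15.6% higher and 14.3% lower). acs6E had cox1 lower than acs9B by -0.52 ± 0.11 (limma adjusted p = 0.0011), mttB by -0.31 ± 0.11 and nad5 (257337_at) higher by 0.30 ± 0.11. The mttB and nad5 calls between them were lost without acs6E replicate 1 or 2 or acs9B replicate 2, nad5 also without acs9B replicate 1, and both without acs9B replicate 3; mttB was lost too without acs6E replicate 3.

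Other lines were lower in cox1 than the rest. In acs1A 2 of 23 members were called, 0 higher and 2 lower (5.14% of all, 2.69% higher and 2.45% lower): cox1 by -0.71 ± 0.09 (limma adjusted p = 3.2e-05) and mttB by -0.30 ± 0.08. The mttB call was lost without any 1 of the acs1A arrays, while cox1 was also lower at the same bioC level by -0.42 (adjusted p = 0.0089). In acs2B 7 of 23 members were called, 6 higher and 1 lower (13.8% of all, 6.77% higher and 7.06% lower). nad1 (257324_at) and nad1 (257325_at) were higher by 0.32 ± 0.07 and 0.30 ± 0.07, and cox1 lower by -0.43 ± 0.09. That count was 2 without acs2B replicate 2 (beside 8.48% of all), whose bioC level differed from that of its fellow replicates, and 4 without acs2B replicate 3 (6.15%). At the same bioC level cox1 was not called in acs2B (adjusted p = 0.69). In acs2C 3 of 23 members were called, 0 higher and 3 lower (10.7% of all, 5.09% higher and 5.6% lower): cox1 by -0.57 ± 0.09 and nad1 (257321_at) by -0.26 ± 0.07, with ccmFC beside them. Without acs2C replicate 1 or 2 only cox1 was called (beside 3.19% and 4.08% of all), and at the same bioC level cox1 missed the threshold (adjusted p = 0.052).

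In acs4A 6 of 23 members were called, 0 higher and 6 lower (3.43% of all, 2.1% higher and 1.33% lower). nad9 differed by -0.41 ± 0.07 (limma adjusted p = 0.002) and cox2 by -0.33 ± 0.07 (limma adjusted p = 0.0062). The nad9 call held without any 1 array, and that of cox2 was lost without acs4A replicate 2. The remaining calls there were nad4L, ccmFC, nad1 (257322_at) and nad1 (257325_at), at -0.31 to -0.28, of which nad4L was lost without acs4A replicate 2 or 3 and nad1 (257325_at) without acs4A replicate 3. In acs5C 1 of 23 members were called, 1 higher and 0 lower (3.88% of all, 2.62% higher and 1.26% lower), nad1 (257325_at) at 0.25 ± 0.07, which was lost without acs5C replicate 1 or 2. The count there was 2 without acs4A replicate 3 (beside 4.57% of all). In acs5D limma called 0 of 23 (1.05% of all, 0.55% higher and 0.501% lower), and 1 without acs4A replicate 1 or acs9B replicate 2, while 3 members had an unadjusted p under 0.05.

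Lines named for the same gene were compared directly. acs2B had 6 of 23 members higher and 0 lower than acs2C (21.4% of all, 10.4% higher and 10.9% lower). nad1 (257321_at) was higher by 0.38 ± 0.10 (limma adjusted p = 0.0065) and nad1 (257324_at) by 0.32 ± 0.09 (limma adjusted p = 0.015). The others were nad1 (257325_at), ccmB, ccmFC and cox2, at 0.27 to 0.31, and the cox2 call was lost once bioC level entered the fit as a batch (adjusted p = 0.072). That term was set by acs2B replicate 2 alone, the only acs2B array of the high level. The nad1 (257321_at) call held without any 1 array, and the count was 3 without acs2B replicate 2 or acs2C replicate 2 (beside 17.9% and 17.2% of all). acs5C differed from acs5D at 1 of 23 members (2.29% of all, 1.59% higher and 0.703% lower), nad1 (257325_at), higher by 0.38 ± 0.09 (limma adjusted p = 0.016). It was lost without acs5C replicate 1 or 2 or acs5D replicate 2, and the bioC level was low throughout acs5C and high throughout acs5D, so line and bioC cannot be told apart there. cox1 differed between acs5C and acs5D by 0.05 ± 0.11 and between acs2B and acs2C by 0.12 ± 0.11, neither past the threshold.

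In the higher order lines fewer members were called than in the single lines, as were fewer of all probe sets in penta, hexa and hepta. Most of the called members were higher than Col. In penta 4 of 23 members were called, 4 higher and 0 lower (3.2% of all, 2.08% higher and 1.13% lower). In hexa 3 of 23 members were called, 3 higher and 0 lower (8.05% of all, 4.44% higher and 3.61% lower). In hepta 5 of 23 members were called, 5 higher and 0 lower (12% of all, 6.96% higher and 5.08% lower). These 3 lines thus had 0 lower members by limma, with 0, 0 and 2 lower at an unadjusted p under 0.05. In miR 5 of 23 members (21.7%) were called, 2 higher and 3 lower, near the share of all probe sets (20.9%, 12.3% higher and 8.61% lower). All 12 line arrays read above all 3 Col arrays for nad9 and cox2, a position held by 2.98% of all probe sets, and 12 members were called in no line. The penta count was 0 without Col replicate 1 or 3 (beside 1.13% and 1.25% of all probe sets), 1 without penta replicate 1 or 2 (1.4% and 1.24%), and 2 without penta replicate 3 (2.58%). The hepta count was 2 without Col replicate 1 or 3 or hepta replicate 1 (beside 7.9%, 9.24% and 8.59% of all). The miR count was 1 without Col replicate 1 (16.1% of all) and 3 without miR replicate 2 or 3 (17.5% and 18.6%).

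nad9, a complex I subunit, had the largest rises of the higher order set. nad9 read 5.76, 5.77 and 5.89 in penta, 6.36, 6.25 and 6.24 in hexa, 6.06, 6.03 and 6.07 in hepta and 6.19, 6.17 and 5.99 in miR, against 5.59, 5.64 and 5.37 in Col. Every line array lay above Col, highest in hexa and lowest in penta. The differences were 0.75 ± 0.08 (limma adjusted p = 8.2e-06) in hexa, 0.52 ± 0.08 (limma adjusted p = 0.00023) in hepta and 0.59 ± 0.08 (limma adjusted p = 4.6e-05) in miR. Each held in every alternative that included nad9, which the fit without the probe sets below the median level did not. In penta nad9 differed by 0.27 ± 0.08 and was not called (limma adjusted p = 0.077). Between lines, hexa had more nad9 signal than penta by 0.47 ± 0.08 (limma adjusted p = 0.001). cox2, the electron-accepting subunit of cytochrome c oxidase, followed. cox2 read 6.65, 6.79 and 6.89 in penta, 7.08, 6.92 and 7.04 in hexa, 6.94, 6.76 and 6.90 in hepta and 6.78, 6.75 and 6.82 in miR, against 6.48, 6.57 and 6.62 in Col. Every line array lay above Col, and cox2 was higher in hexa (0.46 ± 0.08 (limma adjusted p = 0.00086)), hepta (0.31 ± 0.08 (limma adjusted p = 0.012)) and miR (0.23 ± 0.08 (limma adjusted p = 0.044)). The hepta call was lost without Col replicate 1 or hepta replicate 1 and the miR call without any 1 of the 6 arrays. The lines in which nad9 and cox2 were called higher are the ones whose arrays all read below Col in the 25S ribosomal RNA probe set, and the part of that difference in these calls was not tested. cox1 was called in none of these lines, at -0.11 ± 0.08 in miR to 0.16 ± 0.08 in hexa.

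**Figure D4:**
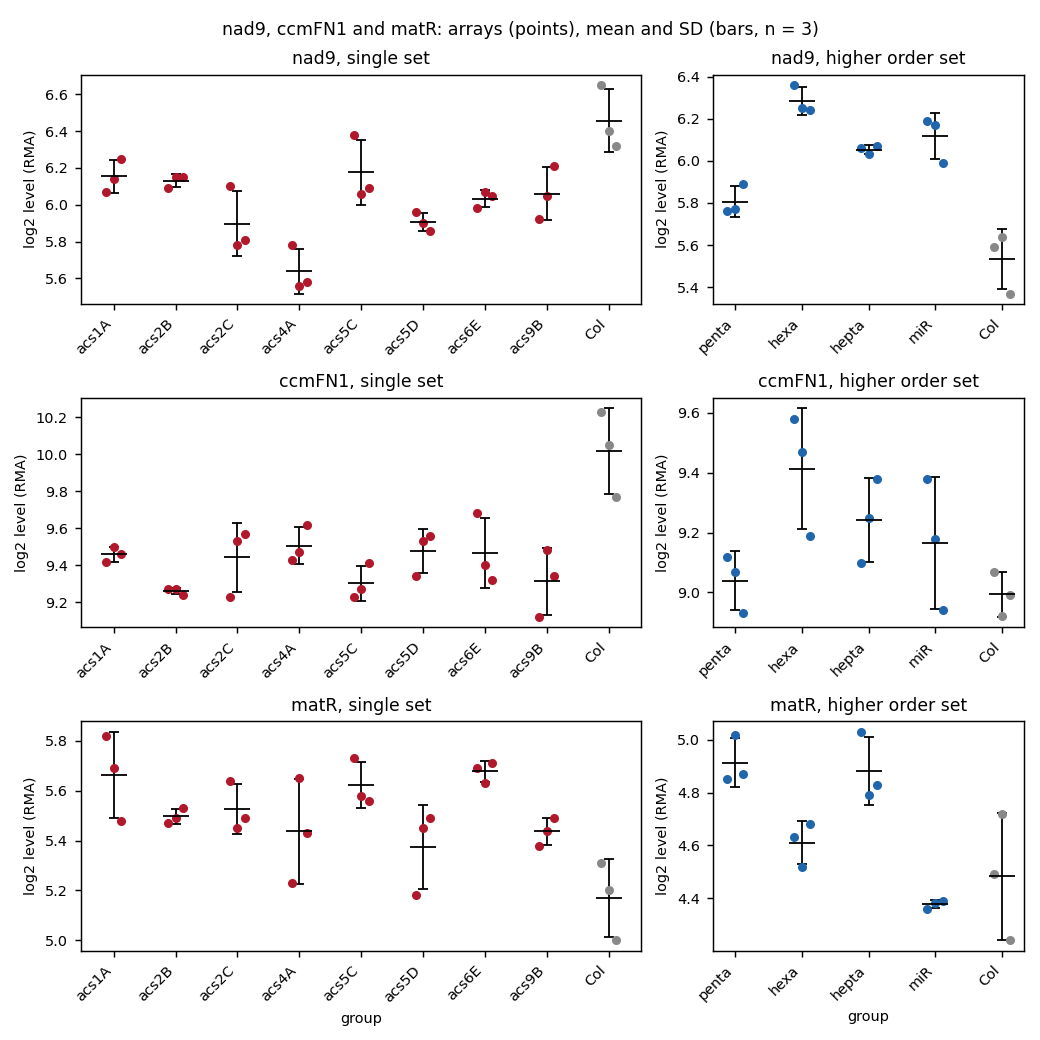
Log2 levels of nad9, ccmFN1 and matR (rows) on each array (points) of the single set (left) and the higher order set (right), with the mean and SD of 3 arrays (bars). nad9 and ccmFN1 of the single lines lie at or below the Col points, apart from 1 acs5C array for nad9, whereas all 12 higher order line arrays lie above Col for nad9.

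nad4L and matR were higher in penta and hepta. nad4L read 5.91, 5.81 and 6.13 in penta, 5.87, 5.72 and 5.88 in hexa, 5.96, 5.75 and 6.08 in hepta and 5.87, 5.50 and 5.71 in miR, against 5.42, 5.64 and 5.36 in Col. Every line array but miR replicate 2 lay above Col for nad4L. Its differences were 0.48 ± 0.11 (limma adjusted p = 0.025) in penta and 0.45 ± 0.11 (limma adjusted p = 0.011) in hepta. matR read 4.85, 5.02 and 4.87 in penta, 4.63, 4.52 and 4.68 in hexa, 5.03, 4.79 and 4.83 in hepta and 4.36, 4.38 and 4.39 in miR, against 4.49, 4.72 and 4.24 in Col. The matR arrays of penta and hepta lay above all Col arrays and those of hexa and miR inside the Col range. The differences were 0.43 ± 0.10 (limma adjusted p = 0.024) in penta and 0.41 ± 0.10 (limma adjusted p = 0.012) in hepta, and miR had less matR signal than hepta by -0.51 ± 0.10 (limma adjusted p = 0.0028). The last held in every alternative that included matR, which lay below the median level. The calls of nad4L and matR against Col were lost without Col replicate 3 and without 1 or more of penta replicates 1, 2 and 3, hepta replicates 1 and 3 and Col replicate 1.

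The remaining calls against Col in this set were in 1 line each. In penta nad1 (257322_at) was higher by 0.52 ± 0.10 (limma adjusted p = 0.011) and ccmFC by 0.33 ± 0.09, the ccmFC call being lost without Col replicate 1 or 3 or any 1 penta array. The probe set 257322_at of nad1 read 5.68, 5.79 and 5.84 in penta, 5.31, 5.36 and 5.41 in hexa, 5.19, 5.08 and 4.99 in hepta and 4.99, 4.97 and 5.00 in miR, against 5.19, 5.56 and 5.00 in Col. Only penta lay wholly above Col, and its level exceeded that of hepta, hepta minus penta being -0.68 ± 0.10 (limma adjusted p = 0.00051). The call against Col was lost without Col replicate 1 or 3 or penta replicate 2. The one between hepta and penta held in every alternative that included this probe set, which lay below the median level. ccmFN1 was higher in hexa (0.42 ± 0.11 (limma adjusted p = 0.027)). ccmFN1 read 9.12, 9.07 and 8.93 in penta, 9.58, 9.47 and 9.19 in hexa, 9.10, 9.25 and 9.38 in hepta and 9.38, 9.18 and 8.94 in miR, against 9.07, 8.92 and 8.99 in Col. The hexa arrays lay above Col, and the call was lost without Col replicate 2 or 3 or hexa replicate 1 or 2. nad6 was higher in hepta by 0.35 ± 0.11 (limma adjusted p = 0.04), which was lost without Col replicate 1 or 3 or hepta replicate 1 or 2.

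mttB fell in miR. mttB read 7.53, 7.36 and 7.18 in penta, 7.45, 7.32 and 7.11 in hexa, 6.83, 6.50 and 6.84 in hepta and 6.73, 6.67 and 6.43 in miR, against 7.15, 6.90 and 7.11 in Col. The miR and hepta arrays lay below all Col arrays and the penta arrays above them. The difference from Col was -0.44 ± 0.12 (limma adjusted p = 0.012) in miR, lost without Col replicate 1 or miR replicate 3, and -0.33 ± 0.12 in hepta, which was not called (limma adjusted p = 0.084). Between lines mttB was lower in hepta than in penta by -0.63 ± 0.12 (limma adjusted p = 0.0033), in hepta than in hexa by -0.57 ± 0.12 (limma adjusted p = 0.009) and in miR than in hexa by -0.68 ± 0.12 (limma adjusted p = 0.0014). The first and the last held without any 1 array, and the second was lost without hexa replicate 1 or hepta replicate 2. miR was also the line with lower nad2 (-0.33 ± 0.11 (limma adjusted p = 0.034)) and nad7 (-0.32 ± 0.08 (limma adjusted p = 0.0099)), calls lost without Col replicate 1, and for nad2 also without Col replicate 3 or miR replicate 2 or 3.

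The higher order lines differed among themselves for 5 of 23 members (21.7% by limma F-test, near the 18.6% of all probe sets): nad1 (257322_at), nad6, nad9, matR and mttB. In direct comparisons hexa differed from penta at 2 members (7.31% of all, 3.4% higher and 3.91% lower), hepta from penta at 3 (3.58% of all, 1.66% higher and 1.92% lower) and hepta from hexa at 1 (3.95% of all, 2.42% higher and 1.53% lower). miR differed from hepta at 1 (9.59% of all, 5.31% higher and 4.29% lower) and from hexa at 3 (7.83% of all, 4.72% higher and 3.12% lower). Beyond the values above, nad1 (257322_at) was lower in hexa than in penta (-0.41 ± 0.10) and in miR than in hexa (-0.38 ± 0.10), nad1 (257325_at) lower in miR than in hexa (-0.28 ± 0.08), and nad6 higher in hepta than in penta (0.41 ± 0.11). These 4 calls were lost without 1 or more single arrays, among them penta replicate 2, penta replicate 3, hexa replicate 1, hexa replicate 2 and, for nad6, hepta replicates 1 and 2; those between miR and hexa were lost without any 1 of the 6. The count between hexa and penta was 1 without penta replicate 2 or hexa replicate 1 or 2 (beside 4.04%, 4.45% and 5.17% of all). That between hepta and hexa was 0 without hexa replicate 1 or hepta replicate 2 (2.53% and 2.56% of all). That between miR and hexa was 1 without hexa replicate 1 or 2 or miR replicate 3 (4.47%, 5.84% and 8.24% of all).

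Nuclear genes whose products work beside the mitochondrial ones did not share 1 direction in the single lines. Of 96 listed genes 34 had a probe set whose annotation names that gene alone. Of these 34, 7 in acs5C (20.6%, beside 19.2% of all probe sets) to 13 in acs1A (38.2%, beside 21.4%) were called against Col, with 4 higher and 9 lower in acs1A and 8 higher and 3 lower in acs2B and acs6E. Their median differences were -0.03 to 0.08. Of 5 nuclear complex I subunits, FRO1, needed for assembly of the complex, was lower in all 8 lines (-0.31 to -0.20) and PSST, which carries an iron-sulphur cluster, higher in 7 (0.14 to 0.28 over all 8). Of 9 subunits of complexes II and III, MPPBETA, a core protein of complex III that in plants also cleaves import signals, was higher in all 8 (0.19 to 0.38), its partner MPPALPHA1 in 5 and the cytochrome c1 gene CYC1-1 in 4, while QCR7-1 was lower in 6 (-0.27 to -0.12 over all 8). Of 6 measured cytochrome c and complex IV genes, the cytochrome c genes CYTC-2 and CYTC-1 were lower in 5 and 4 lines and COX6A in 5, and COX5C-1 was higher in 1. Of 5 genes for RNA processing and genome maintenance, OTP43, a splicing factor of nad1, was higher in 3 lines (-0.03 to 0.21 over all 8), and MTPNPASE, a ribonuclease that trims and degrades mitochondrial RNA, was higher in 1 and lower in 1 (-0.52 to 0.41). Of 2 ATP synthase genes, ATPD was lower in 4 lines and ATPE in 1. Of 6 genes of alternative respiration and stress, UPOX was lower in 3 lines, and NDB2 and NDB3 were each higher in 1. HSP23.5 was higher in 2 lines and lower in 1 (-0.72 to 1.21 over all 8). The 1 measured nuclear gene of cytochrome c maturation was called in no line.

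In the higher order lines limma called 0 of the 34 in penta (2 at an unadjusted p under 0.05), 1 in hexa and 1 in hepta (2.94% each, beside 8.05% and 12% of all probe sets), and 7 in miR (20.6%, beside 20.9%), 2 of them higher and 5 lower. The complex I gene B13 and QCR7-2, listed with complexes II and III, were each higher in 1 line. SDH1-1, NDB1, NDB2, OTP43 and MTPNPASE were each lower in 1 line and the stress gene HSP23.5 in 2. Fits that leave out 1 array were not made for the nuclear genes.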

How the data were processed

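The analysis began from deposited values of expression on a log2 scale, which hold 1 number for each probe set on each array. Per the submitters' processing notes they were made with RMA, of a version that the sources used here do not give. Medians of the arrays were 6.77 to 6.83 in the single set and 6.24 to 6.31 in the higher order set, so every test stayed within a set. Gene names came from the platform annotation. Its gene identifiers for the members are retired in the TAIR10.1 gene table, so members were matched by symbol to the mitochondrial chromosome.

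Models with 1 coefficient per group were fitted over all probe sets of a set by lmFit and eBayes of limma 3.58.1 (R 4.3.3), two-sided, with Benjamini-Hochberg adjustment over 22746 probe sets within each of 28 comparisons and a threshold of 0.05. Titles describe the 3 arrays of each group as biological replicates, and a p-value reflects only the spread among such arrays. On simulated data with 200 changed probe sets the acs9B comparison recovered 82% of rises of 0.5 and 34% of rises of 0.3, with 8 false calls, and the hepta comparison 78% and 18%, with 12. The simulated arrays held independent noise and no shift shared by the lines, whereas the measured acs9B and hepta comparisons called 25.6% and 12% of all probe sets. These figures therefore do not give the recovery or the false calls of the measured comparisons. Members named with every array are the 3 that the choice of members names (nad4L, cox1 and ccmFN1) and, for each set, up to 5 with the largest mean rise and 5 with the largest mean fall among those called in at least 4 of 8 or 2 of 4 lines. In comparisons between lines they are up to 2 each way. nad1 (257322_at) and mttB were added after their values were seen. Alternatives were a second quantile normalization, an intensity trend with robust variance, leaving out the probe sets below the median level, the compared groups alone, the replicate number as a block, each array left out and, between lines, the same bioC level or that level as a batch term. Members and gene lists were chosen with earlier results of these data known.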

Additional observations from a re-analysis of the deposited data

Results flagged for a closer look

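nad9 moved in opposite directions in the 2 sets. Its mean difference from Col was 0.53 over the higher order lines and -0.46 over the single lines, 0.99 apart, with all 12 higher order line arrays above their Col arrays. Of the 24 single-line arrays, 23 lay below their lowest Col array. The difference between the sets was not tested, since the sets were normalized apart and have separate Col arrays. In the single set thr read 7.41 to 8.43 on the line arrays and 6.81 to 6.97 on Col, and in the higher order set 6.97 to 7.42 on the line arrays and 6.95 to 7.16 on Col. The part of these control values in the result was not tested.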

How the results depend on the processing

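Of the 95 member calls of single lines against Col, 59 held in every fit that left out 1 array and 53 with only the arrays of the groups compared, and 26 were lost without Col replicate 1, 13 without Col replicate 2 and 6 without Col replicate 3. Of the 17 calls of higher order lines against Col, 4 held in every alternative that included their probe set (nad9 in hexa, hepta and miR, and cox2 in hexa). Without Col replicate 1, 11 were lost, and 10 without Col replicate 3. No call changed its direction under any alternative that gave a value. Of 159 calls, 153 held after a second quantile normalization, 151 with an intensity trend and robust variance, 154 with the replicate number as a block and 107 with the compared groups alone. The second normalization acted on RMA values whose array medians within a set already lay close, so it is a mild test. For the 27 calls against the other lines, all of which held, the compared groups alone leave out only the Col arrays. Of 27 calls against the other lines, 14 held within a bioC level. Once bioC level entered the fit as a batch, 5 of 6 calls held between acs2B and acs2C, cox2 being lost. Only acs2B held both levels, so its replicate 2 alone set that term. The difference from acs2C then rests on the remaining acs2B arrays, and the count was 3 when acs2B replicate 2 was left out (beside 17.9% of all probe sets). Between acs6E and acs9B 3 of 3 calls held, but all their arrays had the high level. The term could not move those differences, so it does not test them. Fits within a bioC level or with the batch term give no value against Col or between acs5C and acs5D, where level and line coincide.

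Whether the replicate numbers pair the arrays was not tested. In their deviations from the group means, same-numbered arrays correlated at -0.261 to 0.331 in the single set and -0.181 to 0.214 in the higher order set. Their medians were 0.00892 and 0.03139, beside -0.0072 and -0.0119 for arrays of different numbers. Of the same-numbered pairs, 20 of 108 and 6 of 30 lay above 0.1. With the replicate block the count was 4 for hexa against penta, and no other count of members called moved beyond 1.5 times. With only the compared groups it was 7 for acs1A against Col (beside 10.2% of all probe sets), 3 for acs2B against Col (11.2%), 5 for acs4A against Col (2.51%), 4 for acs5C against Col (8.03%), 7 for acs5D against Col (8.07%), 2 for acs5C against the other lines, 1 for acs5D against the other lines, 0 for acs5C against acs5D, 5 for acs6E against acs9B, 1 for penta against Col, 3 for hepta against Col, 3 for miR against Col and 4 for hexa against penta. Within a bioC level it was 3 for acs2B against the other lines, 1 for acs2C against the other lines, 2 for acs5C against the other lines and 0 for acs6E against the other lines, and after the second quantile normalization 0 for acs5C against the other lines. Leaving out the probe sets below the median level kept 6 of 23 members in each set, so fewer could be called: 3 for acs1A against Col, 4 for acs2B against Col, 3 for acs2C against Col, 4 for acs4A against Col, 3 for acs5C against Col, 3 for acs5D against Col, 3 for acs6E against Col, 4 for acs9B against Col, 2 for acs2B against the other lines, 2 for acs4A against the other lines, 0 for acs5C against the other lines, 2 for acs6E against the other lines, 2 for acs2B against acs2C, 0 for acs5C against acs5D, 5 for any difference among the single lines, 1 for penta against Col, 2 for hepta against Col, 2 for miR against Col, 1 for hepta against penta, 0 for miR against hepta and 1 for any difference among the higher lines. Of all probe sets kept, 28.8% in acs5D to 44.5% in acs6E were called against Col in the single lines, so the background share rose there too. Leaving out 1 array gave counts of 7 to 13 for acs1A against Col, 6 to 10 for acs2B against Col, 9 to 12 for acs2C against Col, 11 to 13 for acs4A against Col, 6 to 13 for acs5C against Col, 9 to 11 for acs5D against Col, 11 to 13 for acs6E against Col, 8 to 12 for acs9B against Col, 1 to 2 for acs1A against the other lines, 2 to 8 for acs2B against the other lines, 1 to 4 for acs2C against the other lines, 4 to 7 for acs4A against the other lines, 0 to 2 for acs5C against the other lines, 0 to 1 for acs5D against the other lines, 1 to 4 for acs6E against the other lines, 3 to 4 for acs9B against the other lines, 3 to 6 for acs2B against acs2C, 0 to 1 for acs5C against acs5D, 1 to 3 for acs6E against acs9B, 12 to 15 for any difference among the single lines, 0 to 5 for penta against Col, 2 to 4 for hexa against Col, 2 to 7 for hepta against Col, 1 to 5 for miR against Col, 1 to 3 for hexa against penta, 0 to 1 for hepta against hexa, 2 to 3 for hepta against penta, 1 to 1 for miR against hepta, 1 to 2 for miR against hexa, 4 to 7 for any difference among the higher lines. Signal close to background limits the dim members, and 3 arrays per group limit the precision of all.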

Other observations

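A further 12 probe sets match a mitochondrial gene together with another gene, in 11 cases a gene on chromosome 2, and so name no gene. Of these, 4 in acs6E (33.3% of them called, beside 28.8% of all probe sets) to 7 in acs4A (58.3%, beside 20.3%) were lower than Col in the single lines, and 2 were higher, both in acs9B. In the higher order lines 1 was higher in penta and 1 in hepta, and 1 was lower in hepta and 4 in miR (33.3%, beside 20.9% of all).

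The 69 probe sets of single plastid genes, the other organelle genome, had 20 in acs5D (29% of them, beside 17.6% of all probe sets) to 26 in acs5C (37.7%, beside 19.2%) called against Col in the single lines. The balance varied by line, from 8 higher and 18 lower in acs5C to 18 higher and 3 lower in acs9B, and their medians lay between -0.07 and 0.09. In the higher order lines limma called 0 in penta (4 at an unadjusted p under 0.05; 3.2% of all probe sets were called) and 1, lower, in hexa (1.45%, beside 8.05% of all). In hepta 12 were lower and 1 higher (18.8%, beside 12% of all), and in miR 23 were lower and 1 higher (34.8%, beside 20.9%), with a median of -0.20. The difference between plastid and mitochondrial genes was not tested.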
